A study of Mus musculus with 4 samples.

Results

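The relay thalamus Prkcd-type spots are the parts of 4 coronal mouse brain sections with the highest levels of a set of 6 genes that mark the relay nuclei of the thalamus. Spots with at least 500 unique molecular identifiers (UMIs) and 250 genes were kept, and each was scored by the mean, over Prkcd, Tnnt1, Rab37, Plekhg1, Abhd12b and Eps8l2, of ln(1 + UMIs of the gene per 10000 UMIs of the spot). The 190 spots with the highest score in each section were taken as members, 760 of 13452 kept spots in all. The members were therefore chosen on measured levels of these 6 genes, and every level of a gene in members against other spots is given as a description with no test.

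The sections came from wild-type C57BL/6J male pups at postnatal day 21 (P21). Their mothers, 8 weeks old by the labels and 8 to 12 by the study's methods, received a diet with 2 mg/kg folic acid (FA; the MF group, 2 sections) or 20 mg/kg FA (the HF group, 2 sections) for 2 weeks before mating and then through pregnancy and lactation. The pups' treatment is thus the diet of the mother, the labels name no other agent or allele, and the study describes the 2 sections of a diet as biological replicates. In Visium-FFPE, probe pairs bound to RNA in a formalin-fixed, paraffin-embedded slice are counted per barcoded spot, an area that holds several cells or parts of cells, and the comparison asks whether gene expression in these areas differed between the diets.

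Relay neurons of the dorsal thalamus are glutamatergic cells that receive sensory, motor or cerebellar input and project to the cortex. They fire either single spikes or bursts, and the bursts depend on T-type calcium channels and on the hyperpolarization-activated HCN current. In the adult thalamus they are inhibited by GABAergic neurons of the reticular nucleus, and the midline nuclei next to them hold other glutamatergic neurons, many with calretinin. Prkcd encodes protein kinase C delta, Tnnt1 a slow-muscle troponin T, Rab37 a small GTPase of vesicle traffic, Plekhg1 an exchange factor for small GTPases and Eps8l2 an actin-binding protein.

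Sequences upstream of the genes of the rule are shown because the members were picked on the joint level of these genes. Of the 6 genes, 5 had at least 1 entry among the RefSeq promoters of GRCm38.p6, and the 250 bases before each listed start were searched on both strands for CTTTGA, the core bound by TCF and LEF factors, AGGTCA, the core bound by nuclear receptors such as RORA, and the E-box CACGTG. The first listed start of Prkcd held a match to the TCF and LEF core and one to the E-box, and that of Abhd12b a match to the nuclear receptor core. Both are printed 5′ to 3′ along the gene with the matches in capitals, for Prkcd from chr14:30626209-30626458 on the minus strand and for Abhd12b from chr12:70153881-70154130 on the plus strand.
Prkcd: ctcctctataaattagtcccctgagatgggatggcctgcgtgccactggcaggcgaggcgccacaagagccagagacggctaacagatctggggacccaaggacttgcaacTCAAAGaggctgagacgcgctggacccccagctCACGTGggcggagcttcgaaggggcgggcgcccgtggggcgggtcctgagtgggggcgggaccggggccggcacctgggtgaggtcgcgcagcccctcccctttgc
Abhd12b: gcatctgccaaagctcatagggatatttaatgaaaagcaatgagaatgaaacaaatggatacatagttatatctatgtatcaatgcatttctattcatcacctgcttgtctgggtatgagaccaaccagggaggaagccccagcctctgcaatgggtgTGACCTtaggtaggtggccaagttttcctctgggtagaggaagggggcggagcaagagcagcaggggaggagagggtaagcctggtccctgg
Over all 32851 listed promoters of the same length, 13.8% held CTTTGA, 14.0% AGGTCA and 6.02% CACGTG, so each match is a frequent one, and it describes letters and not a bound site. The listed starts of Tnnt1, Plekhg1 and Eps8l2 and the second start of Prkcd held none of the 3 motifs in this window. The windows differed in base composition, from 41.2% G and C for Plekhg1 to 69.2% for Eps8l2.

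Wherever 4 values are given, they are those of the first and second MF section followed by the first and second HF section. The summed UMIs of the members were 6035190, 3317673, 2642507 and 2667126, or between 6.27% and 7.82% of the kept UMIs of a section. Member spots were deeper than the others in every section, with medians of 31948.5, 17694.5, 13297.5 and 13797.5 UMIs against 23044.5, 11851.5, 9039 and 11731. Between 35 and 95 of the 190 member barcodes were shared by any pair of sections, and a barcode here stands for a position of the array rather than for a cell. HF replicate 2 stood apart from the other 3 sections. Oxt, which encodes oxytocin, had 667 CPM (UMIs per 1000000 of the summed counts) in the non-member spots of that section and at most 4.37 CPM in those of the others, and Avp, which encodes vasopressin, had 490 CPM against at most 12.0 CPM. Pmch, which encodes melanin-concentrating hormone, ran the other way, with 0.753 CPM in HF replicate 2 and from 340 to 704 CPM in the other sections. Transcripts of hypothalamic neurons thus differed between the 2 HF sections, and whether the sections were taken at the same level of the brain was not tested. Several results between diets, though not all, are given with and without HF replicate 2.

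The lowest score inside the member set and the highest outside it were 1.199 and 1.197 for the first MF section, 1.214 and 1.213 for the second, and 1.238 in both positions for the first HF section. In HF replicate 2 they were both 0.960, so the members of this section reached down to lower levels of the 6 genes. The median score of members was 1.36, 1.40, 1.48 and 1.15, against 0.254, 0.233, 0.176 and 0.176 among the other spots. All 6 genes had a UMI in 81.1%, 61.6%, 53.7% and 13.2% of the members, and in 3.23%, 0.992%, 0.931% and 0.0951% of the other spots.

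Prkcd, on chromosome 14 of GRCm38 from 30595354 to 30626210, had 1730.0, 1756, 1793 and 1395 CPM in the members and between 104 and 241 CPM in the other spots. It had a UMI in every member of all 4 sections. Tnnt1 (chromosome 7, 4504570 to 4516382) had 258, 320, 335 and 121 CPM in members, Abhd12b (chromosome 12, 70154142 to 70183887) 155, 144, 185 and 73.5 CPM, and Eps8l2 (chromosome 7, 141338880 to 141363020) 94.6, 108, 94.2 and 44.6 CPM. For these genes HF replicate 2 lay well below the other sections, and HF replicate 1 lay above both MF sections for Tnnt1 and Abhd12b and just below them for Eps8l2. Rab37 (chromosome 11, 115091431 to 115162236) had 246, 253, 292 and 265 CPM in members. Plekhg1 (chromosome 10, 3740364 to 3967303) had 475, 502, 663 and 643 CPM, and here both HF sections lay above both MF sections. Over the 4 sections the log2 ratio of members to other spots, with 0.5 CPM added to both, was 3.57 ± 0.23 for Tnnt1, 3.52 ± 0.11 for Abhd12b, 3.25 ± 0.41 for Rab37, 3.25 ± 0.42 for Eps8l2, 3.11 ± 0.42 for Prkcd and 2.29 ± 0.22 for Plekhg1 (SD, n = 4 sections).

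**Figure D1:**
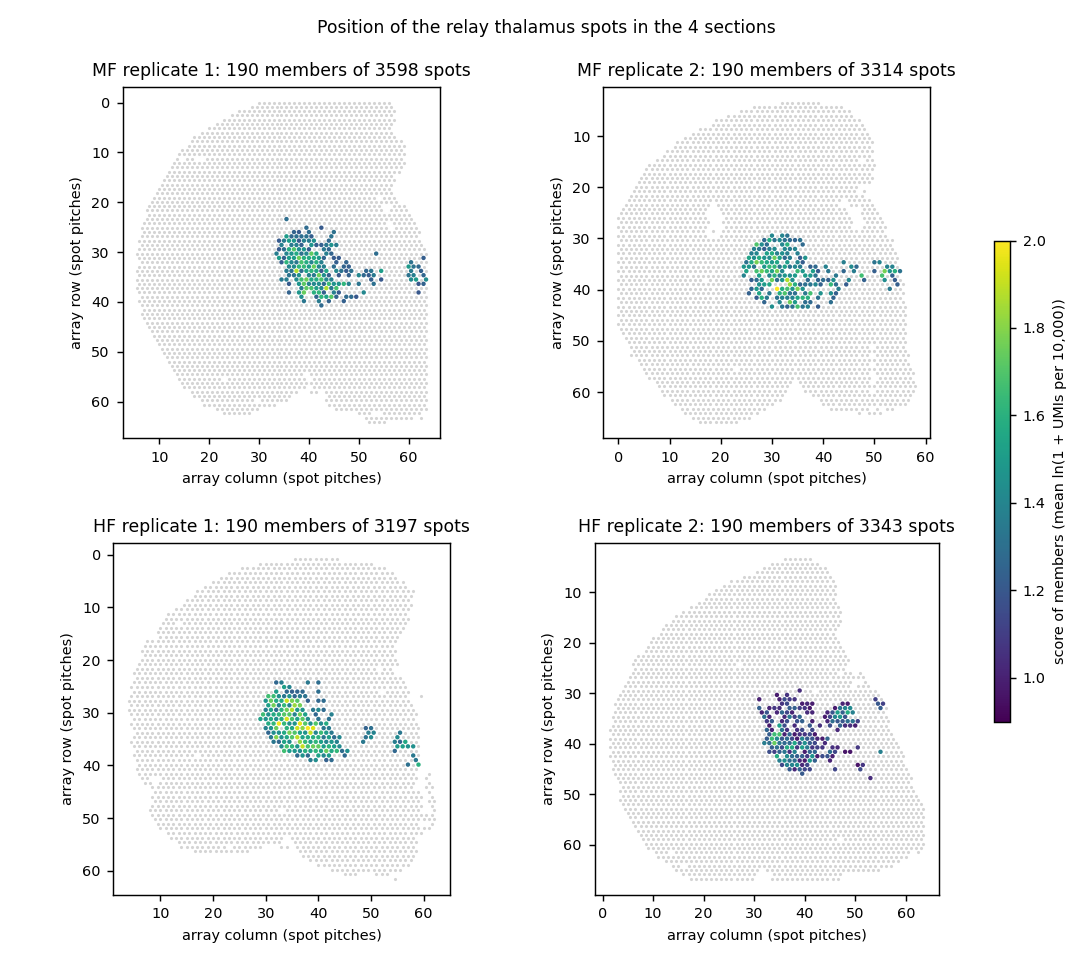
Array position of all kept spots (grey) and of the 190 members (coloured by score) in each section, in spot pitches on both axes. In every section the members form one large patch, of 154, 160, 164 and 144 spots, with smaller groups toward the right of the tissue, and their scores are lowest in HF replicate 2.

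The rule did not use position, yet the members lay together. Of the array neighbours of members, 66.0%, 59.7%, 75% and 67.0% were members too, whereas members made up between 5.28% and 5.94% of the kept spots. The largest connected group held 154, 160, 164 and 144 of the 190 members, and 9 to 14 groups were found per section. In HF replicate 2 the second group was a block of 30 spots, against 10 to 14 spots in the other sections. Members with all 6 neighbours inside the set, called interior here, numbered 49, 18, 77 and 44. The table of spatial autocorrelation that the authors deposited, which covers the whole section, gave Prkcd a Moran's I of 0.716, 0.671, 0.751 and 0.619, and it ranked 14th, 9th, 1st and 17th among the listed features.

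The label was set beside genes that the rule did not use, from lists chosen with earlier results of these data known. This is a description and not an independent check. All 16 genes of a list for relay thalamus identity were higher in members than in other spots in each of the 4 sections, beside 22.9% of the 10053 features with a mean of at least 10 CPM that were higher in all 4 and 43.2% that were lower in all 4. Their median log2 ratio was 1.87, against -0.09 over all these features. They include the transcription factors Rora (968, 933, 907 and 860.5 CPM in members, and 167 to 211 CPM in other spots), Tcf7l2 (188, 207, 247 and 315 CPM, and 61.4 to 92.1 CPM) and Lef1 (113, 112, 187 and 166 CPM, and 26.7 to 52.0 CPM). Shox2, a homeobox factor, was at 44.7, 40.1, 58.3 and 48.0 CPM in members and between 7.58 and 14.3 CPM in other spots. Slc17a6, the vesicular glutamate transporter of subcortical neurons, had 368, 384, 457 and 448 CPM in members and 131 to 200 CPM in other spots, while Slc17a7, the transporter typical of cortical neurons, had 1368, 1333, 1376 and 1034 CPM and was lower in members than in other spots (1738 to 1950 CPM).

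Markers of several adjoining regions were lower in members, and those of the midline thalamus were mixed. All 6 measured genes for the reticular nucleus with a mean of at least 10 CPM were below the other spots in every section, among them Gad2, an enzyme of GABA synthesis, at 130.1, 128, 92.3 and 108 CPM against 261 to 345 CPM. All 5 genes at this level for choroid plexus and ependyma were likewise lower, as were the 4 genes for the habenula. Over all features at this level, 43.2% were lower and 22.9% higher in members in all 4 sections. The calretinin gene Calb2 was at 136, 112, 189 and 325 CPM in members and at 264, 285, 348 and 316 CPM in other spots, so that it was lower in members in 3 sections and slightly higher in HF replicate 2. Of 5 midline thalamus genes at this level, 2 were higher in members in all 4 sections, the peptide gene Cck and the homeobox gene Gbx2, the latter at 20.2, 19.0, 31.8 and 34.1 CPM against 9.28 to 14.2 CPM, and 2 were lower. Myelin genes were present in strength, with 26 of 30 higher in members than in other spots in all 4 sections and a summed level between 32809 and 39789 CPM. The astrocyte list summed to between 4291 and 4908 CPM in members and 4302 to 4949 CPM in other spots. The leading markers thus fit the label in part. Only 10 of the 16 identity genes were higher in members than in the midline thalamus spots described below in all 4 sections. RNA of oligodendrocytes and astrocytes was counted in the member spots too.

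**Figure D2:**
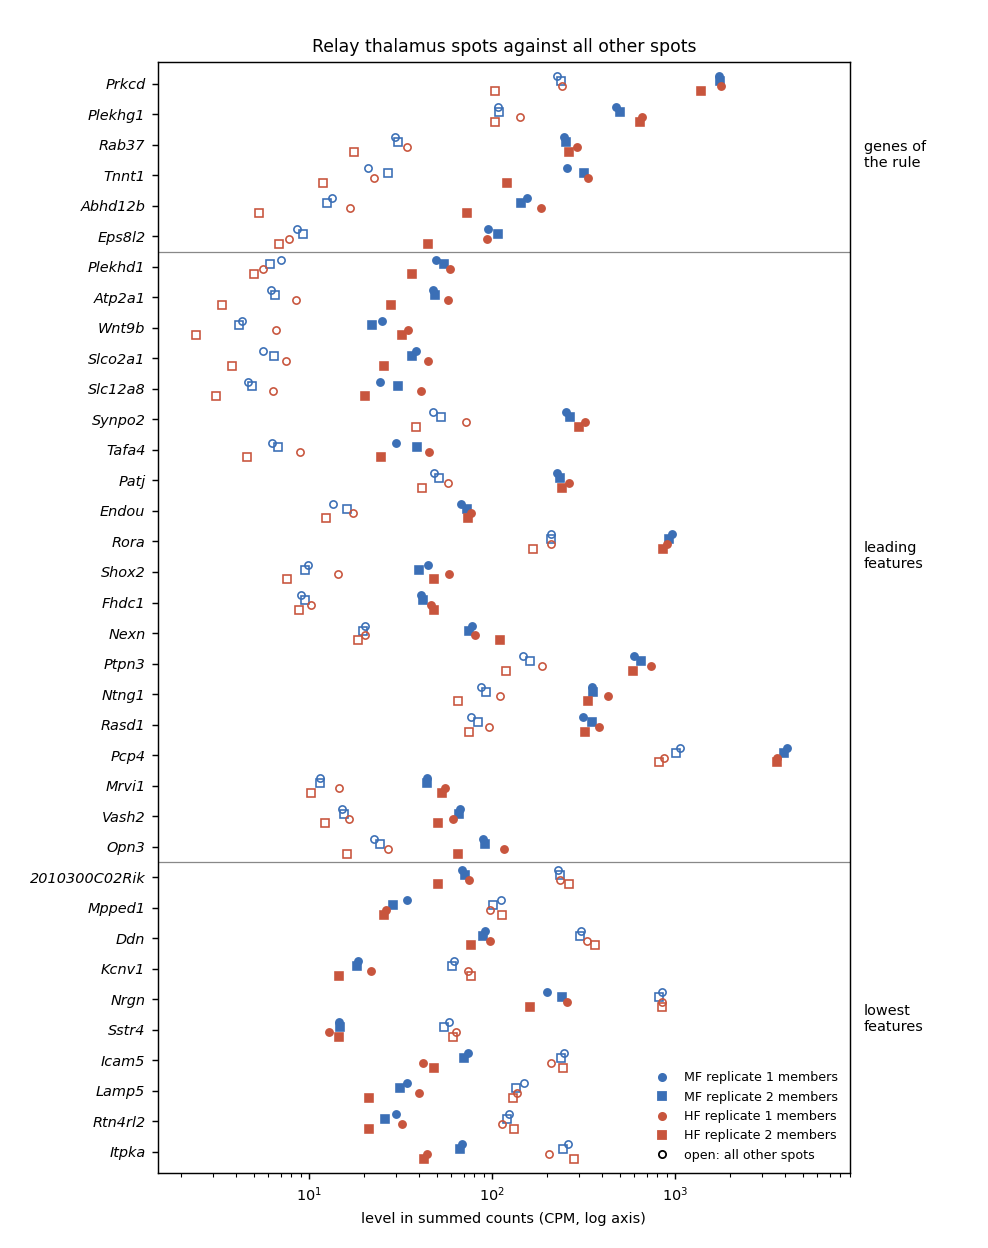
Level in CPM (log axis) of the 6 genes of the rule, the 20 leading features and the 10 lowest features in member spots (filled) and all other spots (open), 1 point for each section. Filled points lie to the right of open ones for the rule genes and leading features and to the left for the lowest, and for most rule genes HF replicate 2 (red squares) has the lowest filled point.

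Among the features outside the rule with at least 20 CPM in the members of every section, the 20 with the highest lowest ratio over the 4 sections were led by Plekhd1 and Atp2a1. Plekhd1 was at 49.5, 54.6, 59.0 and 36.4 CPM in members and at most 7.02 CPM in other spots, a log2 ratio of 2.95 ± 0.27 (SD, n = 4). Atp2a1, which encodes the fast-muscle calcium pump SERCA1, was at 47.4, 49.1, 57.5 and 28.1 CPM and at most 8.53 CPM in other spots, a ratio of 2.81 ± 0.09. Wnt9b, a secreted Wnt ligand, was at 25.02, 22.0, 34.8 and 32.2 CPM against at most 6.59 CPM. Slco2a1, a prostaglandin transporter, Slc12a8, a solute carrier, and Tafa4, a secreted chemokine-like protein, had ratios of 2.55, 2.48 and 2.30.

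Other leading features were far more abundant. Rora, which encodes an orphan nuclear receptor, had a ratio of 2.20 ± 0.11, and Pcp4, a calmodulin regulator, was at 4092, 3944, 3617 and 3626 CPM in members against 816 to 1071 CPM elsewhere, a ratio of 2.02 ± 0.10. Synpo2, an actin-binding protein, was at 253, 268, 321 and 299 CPM, and Ptpn3, a tyrosine phosphatase, at 597, 650, 743 and 590 CPM. Ntng1, the axonal membrane protein netrin-G1 of thalamocortical fibres, was at 352, 357, 428 and 336 CPM, and Rasd1, a Ras-like GTPase induced by dexamethasone, at 315, 351, 387 and 322 CPM. The remaining 8 features, Patj, Endou, Shox2, Fhdc1, Nexn, Mrvi1, Vash2 and Opn3, had mean ratios between 1.98 and 2.28. In 10 of the 20 features HF replicate 2 had the lowest level of the 4 sections in members.

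The 10 features with the lowest ratio, among those of at least 50 CPM in other spots, belong mainly to neurons of cortex and hippocampus. Itpka, a kinase of dendritic spines, was at 68.4, 67.2, 44.3 and 42.4 CPM in members against 205 to 279 CPM, a log2 ratio of -2.17 ± 0.39. Nrgn, the postsynaptic protein neurogranin, was at 200.2, 241, 255 and 161 CPM against 816 to 853 CPM, and Ddn, dendrin, at 89.8 to 98.0 CPM in 3 sections and 77.2 CPM in HF replicate 2 against 304 to 364 CPM. Icam5, the adhesion molecule telencephalin, was at 73.7, 70.2, 42.01 and 48.0 CPM against 210.0 to 248 CPM. Sstr4, a somatostatin receptor, Lamp5, Rtn4rl2, a Nogo receptor homologue, Mpped1, Kcnv1, a potassium channel subunit, and 2010300C02Rik made up the rest, with ratios from -2.15 to -1.87. The features outside the rule with the most UMIs in members included Mbp, Atp1b1, Pcp4, Mobp, Snap25, App, Cplx1, Ndrg4 and Ncdn. Counts of different features depend on their probes, so their order among each other was not read as an order of RNA levels. Mbp, which encodes myelin basic protein, had 10108 to 12606 CPM in members.

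The ion channels of relay neurons were well represented. Of 36 channel genes with a mean of at least 10 CPM, 23 were higher in members in all 4 sections and 12 lower, beside 22.9% and 43.2% of all features at this level. Hcn4 and Hcn2, the HCN channels of relay neurons, had log2 ratios of 1.87 ± 0.09 and 1.05 ± 0.06, with Hcn4 at 39.9, 40.4, 57.9 and 31.1 CPM and Hcn2 at 435, 466, 481 and 445 CPM. The T-type calcium channels were divided, since Cacna1g was at 132, 127, 142 and 154 CPM in members and 52.8 to 63.6 CPM in other spots, and Cacna1h and Cacna1i were lower in members, with ratios of -1.21 ± 0.20 and -1.37 ± 0.20. Kcnc2, a Kv3 channel of fast-spiking cells, was at 632, 707, 733 and 639 CPM, a ratio of 1.55 ± 0.11.

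Receptors for transmitters also differed subunit by subunit. Among GABA receptors, Gabra4 and Gabrd, whose subunits form the extrasynaptic receptor of relay neurons, had ratios of 1.62 ± 0.10 and 1.58 ± 0.10, with 447, 483, 553 and 488 CPM for Gabra4 and 291, 303, 340 and 219 CPM for Gabrd. Gabra5, the hippocampal subunit, was at 41.6, 42.5, 37.5 and 48.4 CPM, a ratio of -1.65 ± 0.11. Of glutamate receptors, the metabotropic receptor Grm4 and the NMDA subunit Grin2c had ratios of 1.57 ± 0.19 and 1.40 ± 0.03, whereas the AMPA subunits Gria1 and Gria2 had -1.22 ± 0.11 and -1.04 ± 0.11. In the list for modulatory receptors, Adra1b, an adrenergic receptor, and Chrna4 and Chrnb2, which together form the main nicotinic receptor of thalamic neurons, had ratios of 1.58 ± 0.08, 1.54 ± 0.20 and 0.95 ± 0.12, and Cnr1, the cannabinoid receptor, had -1.78 ± 0.34. Other protein kinase C genes differed in direction, since Prkca and Prkcb had ratios of -1.33 ± 0.14 and -0.90 ± 0.05 and Prkch had 1.31 ± 0.20. Plcb4, the phospholipase C of relay neurons, was at 488, 520, 497 and 417 CPM, a ratio of 1.86 ± 0.05, and Plcb1 had -1.34 ± 0.05.

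**Figure D3:**
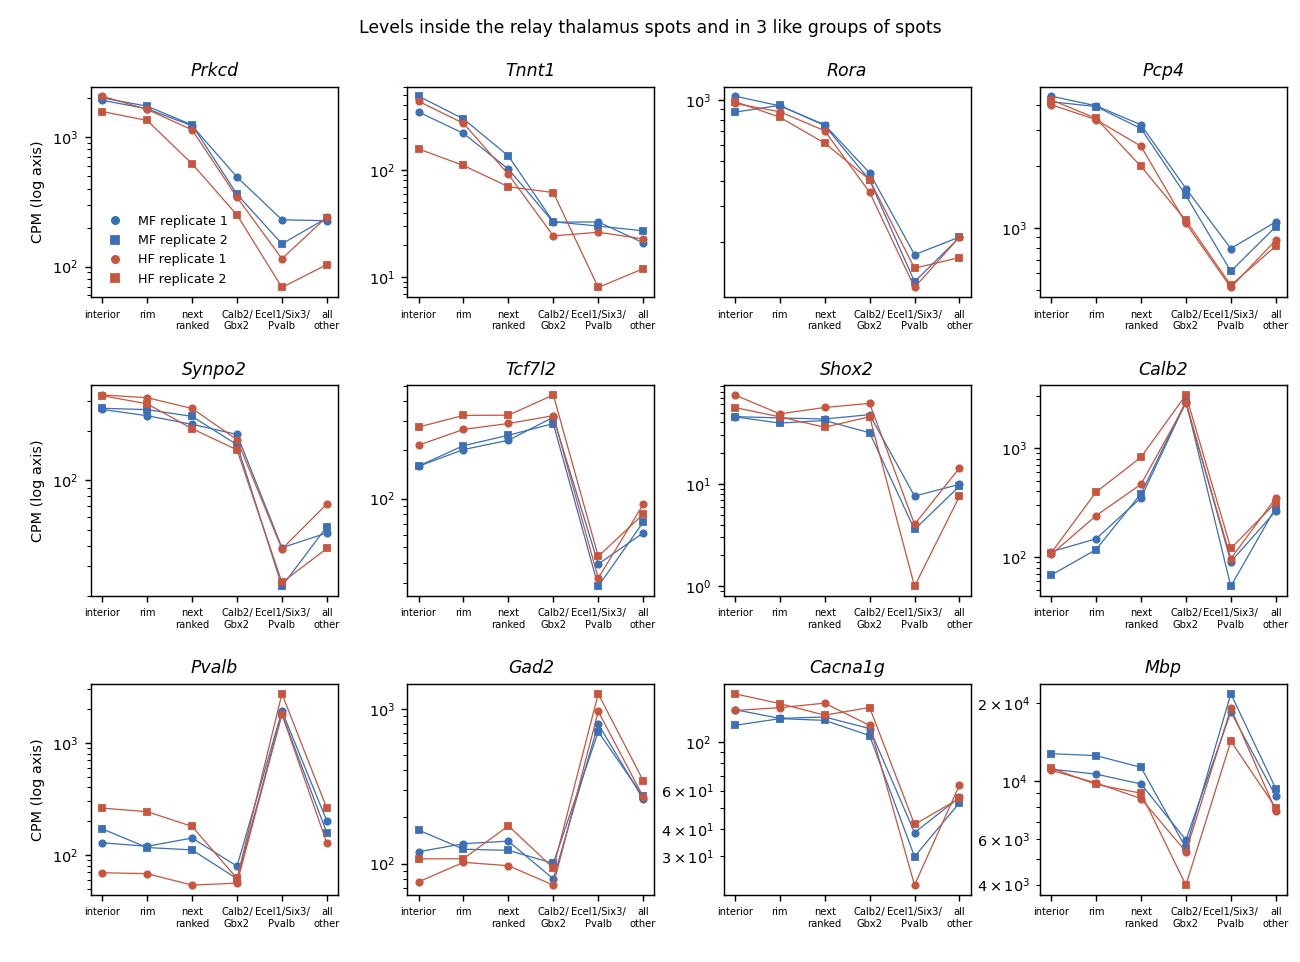
Level in CPM (log axis) of 12 genes in interior members, rim members, the 190 spots ranked next by score, 60 spots high in Calb2 and Gbx2, 60 spots high in Ecel1, Six3 and Pvalb, and all other spots, 1 line for each section. Prkcd, Tnnt1 and Pcp4 fall from the interior to the Calb2 and Gbx2 spots in every section, Tcf7l2 and Calb2 rise up to the Calb2 and Gbx2 spots, and Pvalb, Gad2 and Mbp peak in the Ecel1, Six3 and Pvalb spots. The high Calb2 and Pvalb there are set by the choice of these spots, and Prkcd and Tnnt1 are genes of the rule.

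Within the member set, levels differed between the interior and the rim, where a rim member has at least 1 array neighbour outside the set. Of the 20 leading features, 8 were higher in the interior in all 4 sections and 0 lower, beside 7.53% and 10.6% of all features with a mean of at least 10 CPM. Prkcd was at 1917, 2001, 2064 and 1570.1 CPM in the interior and 1649, 1727, 1629.5 and 1339.6 CPM in the rim. Of the identity list, 5 genes were higher in the interior and 2 ran the other way. Tcf7l2 was at 158, 159, 214 and 277 CPM in the interior and 201, 212, 268 and 327 CPM in the rim, and Ramp3, a receptor activity-modifying protein, at 397, 401, 457 and 519.7 CPM and 530.1, 511, 575 and 556 CPM. Calb2 was lower in the interior too, with 112, 68.2, 105 and 109 CPM in the interior and 147, 117, 239 and 394 CPM in the rim. In the interior the level of Calb2 in HF replicate 2 was thus no higher than in MF replicate 1, and the higher Calb2 of the whole member set in this section lay in the rim. Membership, and so the rim, depends on the score, which is why these values are a description.

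In the 190 spots ranked next by score, Prkcd was at 1218, 1237, 1134 and 621 CPM, a gap to members that the ranking itself sets. The leading features were chosen for high levels in members, and 17 of the 20 were lower in these next spots than in members in all 4 sections, beside 12.4% of all features with a mean of at least 10 CPM, the exceptions being Endou, Shox2 and Mrvi1. Of the 16 identity genes only 8 were lower there in all 4 sections, and Tcf7l2, Lef1, Slc17a6, Cacna1g, Zfhx3, Rgs16, Ramp3 and Shox2 were not. In the 60 spots per section with the highest Calb2 and Gbx2, named midline thalamus spots from these 2 markers alone, Prkcd was at 489.9, 361, 342 and 249.99 CPM and Tcf7l2 at 318, 291, 325 and 437 CPM. Shox2 and Ntng1 were the exceptions there, since the other 18 leading features were lower than in members in all 4 sections, beside 19% of all features. Of the 16 identity genes, 10 were lower in the Calb2 and Gbx2 spots in all 4 sections, the exceptions being Tcf7l2, Slc17a6, Ntng1, Zfhx3, Shox2 and Zic1. Slc17a6 was higher in these spots, at 601, 605, 643 and 695 CPM, than in members. In the 60 spots with the highest Ecel1, Six3 and Pvalb, genes of the reticular nucleus, all 20 leading features and all 16 identity genes were lower than in members in every section, beside 18.6% of all features, with Prkcd at 229.5, 149.7, 115 and 69.0 CPM and Slc17a6 at 80.7, 45.5, 44.3 and 49.0 CPM. Of the 60 Calb2 and Gbx2 spots, 21 were also among the spots ranked next in HF replicate 2 and 3, 3 and 4 in the other sections.

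For the comparison between diets, the UMIs of the members were summed in each section, scaled by TMM, filtered by filterByExpr and tested by edgeR's quasi-likelihood method. A sum cannot tell fewer cells of a type from less RNA per cell. The labels number the sections of a group as replicates, and the p-values measure only the spread between these sections. The diet was given to the mothers, and the sources used here do not say whether the sections of a diet came from different litters. If they did not, the p-values hold no spread between litters. Genes with an adjusted p (Benjamini-Hochberg) under 0.05 and a change of 1.2-fold or more were called. None of the 11836 genes tested was called (0%), 831 (7.02%) had an unadjusted p under 0.05, 418 (3.53%) of them higher and 413 (3.49%) lower in HF, and the median log2 fold change was 0.00. In all other spots 0 of 14916 genes were called and 998 (6.69%) had an unadjusted p under 0.05. DESeq2 called 2 genes, Egr1 and the metallothionein gene Mt2. The members of both HF sections lay above those of both MF sections in 17.7% of the tested genes and below them in 19.1%. With 2 sections per diet, an exact permutation test of a single value cannot give a two-sided p below 0.333.

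Leaving out either HF section moved the count of calls far above 0. Without HF replicate 2 there were 720 called genes and without HF replicate 1 there were 546, whereas 14 and 15 were called without MF replicate 1 and MF replicate 2. In these fits the lone section is assumed to vary like the 2 sections of the other diet. The values that follow are from all 4 sections unless a left-out section is named.

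**Figure D4:**
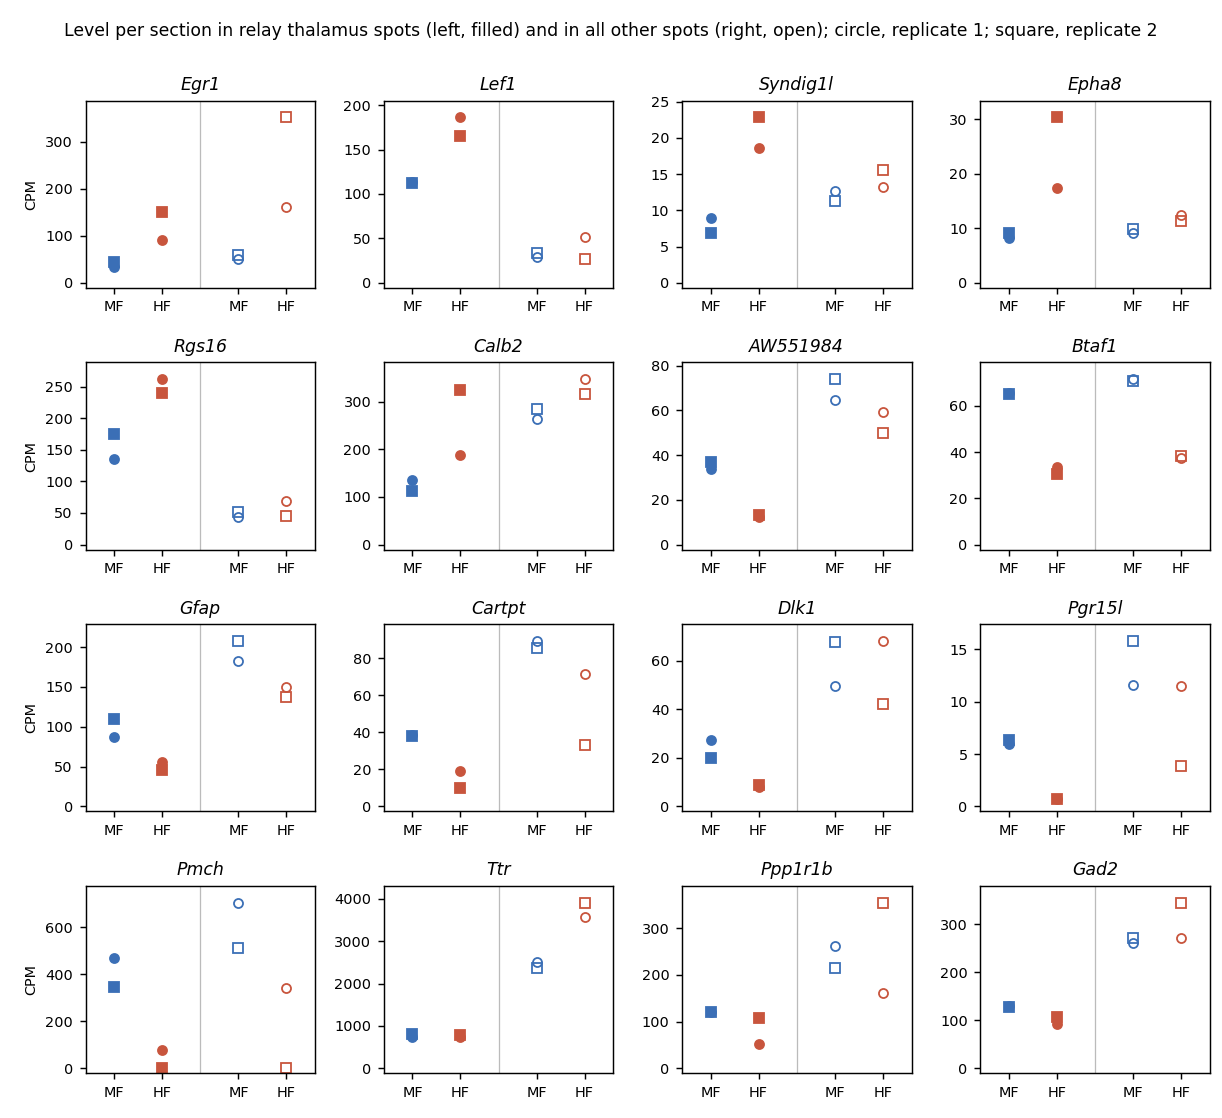
Level in CPM of the 6 genes with the smallest p in each direction and of the genes with a part by diet call, per section, in relay thalamus spots (left of each panel, filled) and in all other spots (right, open), with MF in blue and HF in red. For the first 12 panels both HF sections lie on one side of both MF sections in the members, which the choice by smallest p favours. Over all tested genes both HF sections lay above in 17.7% and below in 19.1%. For Ttr the 4 filled points lie close together while the open points separate by diet.

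The 6 genes with the smallest p among those higher in HF were Egr1, Lef1, Syndig1l, Epha8, Rgs16 and Calb2, and none of them was called. Choosing genes by p, here and below, favours those whose sections do not overlap between diets. Such separation is thus a description, beside 17.7% (HF above) and 19.1% (HF below) of all tested genes. Egr1, an immediate early transcription factor of active neurons, had 34.5 and 43.1 CPM in the MF sections and 91.2 and 150.0 CPM in the HF sections, a log2 fold change of 1.67 ± 0.21 (SE; edgeR adjusted p = 0.058). Both HF sections lay above both MF sections. In the other spots it had 50.1 and 59.3 CPM in MF and 161 and 352 CPM in HF, a log2 fold change of 2.23, and the test of the difference between members and other spots gave an edgeR adjusted p of 0.37. Egr1 was called in 11 of 13 alternatives, among them without HF replicate 2, where its log2 fold change was 1.27.

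Lef1, a transcription factor of Wnt signalling, had 113 and 112 CPM in MF and 187 and 166 CPM in HF, a log2 fold change of 0.65 ± 0.12 (edgeR adjusted p = 0.14). Rgs16, a regulator of G protein signalling, had 135 and 174 CPM in MF and 262 and 239 CPM in HF, 0.71 ± 0.14 (edgeR adjusted p = 0.14). The diets did not overlap for either gene, and both are in the relay thalamus identity list. Over the interior members alone the values were 1.07 ± 0.19 for Lef1 (edgeR adjusted p = 0.0014) and 1.35 ± 0.19 for Rgs16 (edgeR adjusted p = 6.5e-06), both called there. That fit rested on 49, 18, 77 and 44 spots and called 13 genes. With the 100 highest spots the values were 0.69 for Lef1 and 0.85 for Rgs16, and with the 300 highest 0.62 and 0.57. Thinned to 5000 UMIs per spot they were 0.78 (edgeR adjusted p = 0.53) and 0.42 (edgeR adjusted p = 0.93). Neither gene was called with these spot numbers or when thinned. Without MF replicate 1 the values over all members were 0.65 for Lef1 and 0.53 for Rgs16, and without MF replicate 2 they were 0.64 and 0.90. Syndig1l, a protein related to a synapse differentiation factor, had 8.95 and 6.93 CPM in MF and 18.5 and 22.9 CPM in HF, and Epha8, an ephrin receptor, 8.28 and 9.04 CPM and 17.4 and 30.4 CPM. Calb2 had 136 and 112 CPM in MF and 189 and 325 CPM in HF, a log2 fold change of 1.05 ± 0.21 that was 0.59 without HF replicate 2, the section whose rim held most Calb2, and 0.13 ± 0.21 over the interior members alone. Of the 13 alternatives, Calb2 and Rgs16 were called in 6, Epha8 in 5, and Lef1 and Syndig1l in 4.

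AW551984, Btaf1, Gfap, Cartpt, Dlk1 and Pgr15l had the smallest p among genes lower in HF, and again none was called over all 4 sections, whereas AW551984 was called in 7 of the 13 alternatives, Btaf1 and Cartpt in 6, Dlk1 and Gfap in 5 and Pgr15l in 4. AW551984 had 33.8 and 37.1 CPM in MF and 12.5 and 13.1 CPM in HF, a log2 fold change of -1.45 ± 0.20 (edgeR adjusted p = 0.058). Btaf1, a regulator of the TATA-binding protein, had 65.6 and 65.1 CPM in MF and 33.7 and 30.4 CPM in HF, -1.02 ± 0.15 (edgeR adjusted p = 0.061), and its values in other spots were close to these, with 71.6 and 70.8 CPM in MF and 37.6 and 38.2 CPM in HF. For both genes the diets did not overlap, and the sections of a diet lay within a few CPM. Gfap, the astrocyte filament protein, had 87.7 and 110.3 CPM in MF and 55.6 and 45.7 CPM in HF, a log2 fold change of -0.95 ± 0.16 (edgeR adjusted p = 0.14). Over the 12 astrocyte genes the median was 0.01, with 6 above 0 and 6 below. At an unadjusted p under 0.05, 1 was higher and 2 lower, Gfap among them, beside 3.53% and 3.49% of all genes. The low Gfap was thus not shared by the list as a whole.

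Cartpt, a neuropeptide precursor, had 38.4 and 38.0 CPM in MF and 18.9 and 10.1 CPM in HF, Dlk1, an imprinted gene expressed in hypothalamic neurons, 27.3 and 19.9 CPM and 7.95 and 8.62 CPM, and Pgr15l, a receptor with few counts, 36 and 21 UMIs in MF and 2 UMIs in each HF section. Of 8 listed hypothalamus genes, which mark neurons outside the thalamus, 5 passed the filter on low counts. Most of their counts lay in the MF sections, and Oxt and Avp, high in HF replicate 2 alone, did not pass, so the direction of those that passed is in part set by the filter. Their median log2 fold change was -1.53, and it was -1.61 when the second HF section was left out and -6.84 when the first was. The list summed to 602, 445, 124 and 381 CPM in members and to 943, 792, 596 and 1242 CPM in other spots. Hcrt, which encodes orexin, had 67.3 and 30.4 CPM in MF and 12.5 and 0.375 CPM in HF, and Peg10 had 29.5 and 38.6 CPM in MF and 16.3 and 13.1 CPM in HF. Oxt and Avp had 541 and 414 UMIs in the members of HF replicate 2 and at most 3 and 11 UMIs in each other section. The part of these hypothalamic transcripts in the other results was not tested.

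The genes of relay thalamus identity tended to lie above 0 without a call. All 16 passed the filter, 14 had a log2 fold change above 0, beside 50.2% of all genes tested, and 6 had an unadjusted p under 0.05, all higher in HF, beside 3.53% of all genes tested. The median was 0.23 in members and 0.12 in the other spots, beside 0.00 over all genes in both. Leaving out the second HF section gave 0.28, and leaving out the first gave 0.19. Tcf7l2 had 188 and 207 CPM in MF and 247 and 315 CPM in HF (0.52 ± 0.13, edgeR adjusted p = 0.38), and Zic1, a zinc-finger factor, 313 and 333 CPM and 421 and 403 CPM (0.36 ± 0.11, edgeR adjusted p = 0.48). The sections of the 2 diets did not overlap for either gene. The 6 genes of the rule had a median of -0.17, which became 0.23 when the second HF section was left out and -0.67 when the first was, so their direction followed the HF section that was kept.

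**Figure D5:**
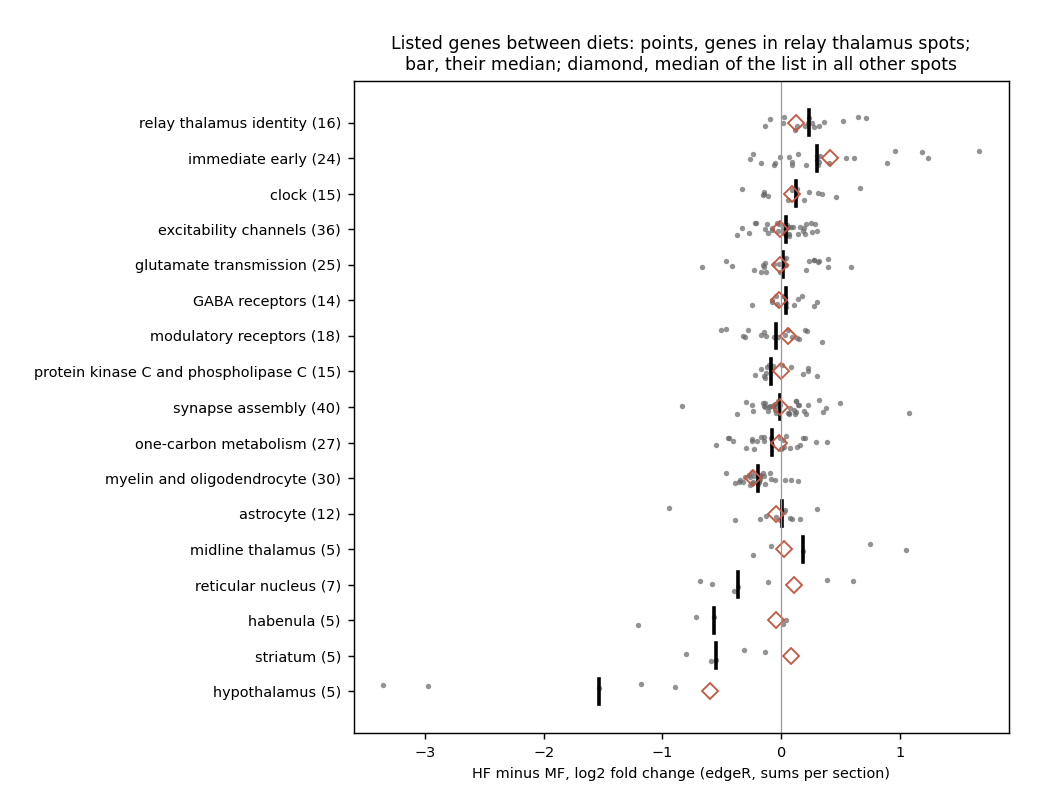
HF minus MF log2 fold change of each tested gene of 17 lists in relay thalamus spots (points), with their median (bar) and the median of the same list in all other spots (diamond). The number of genes tested in members is in brackets after each name. Points scatter around 0 for the channel, receptor, synapse and one-carbon lists, lie mostly above 0 for immediate early genes and mostly below 0 for myelin genes, and lie below 0 for the 5 hypothalamus genes that passed the filter on low counts.

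Immediate early genes, which neurons transcribe within minutes of activity, were above 0 in 18 of 24 tested cases, beside 50.2% of all genes, with a median of 0.30 in members and 0.41 in other spots. An unadjusted p under 0.05 was found for 6, all higher in HF, beside 3.53% of all genes. Dusp1, a phosphatase of MAP kinases, had 19.7 and 19.0 CPM in MF and 62.8 and 28.5 CPM in HF (1.24 ± 0.29, edgeR adjusted p = 0.30), and Nr4a3, an orphan nuclear receptor, 14.1 and 13.3 CPM and 43.5 and 18.7 CPM (1.18 ± 0.32, edgeR adjusted p = 0.40). Fos had 6.79 and 7.84 CPM in MF and 14.8 and 13.1 CPM in HF (0.96 ± 0.26, edgeR adjusted p = 0.43). For these genes HF replicate 1 was the highest section, in contrast to Egr1, and without HF replicate 1 the median of the list was 0.01.

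Of 15 clock genes, 10 were above 0, with a median of 0.12, and 4 had an unadjusted p under 0.05, all higher in HF, beside 50.2% and 3.53% of all genes. Per1 had 47.7 and 47.9 CPM in MF and 66.6 and 64.5 CPM in HF (0.46 ± 0.13, edgeR adjusted p = 0.48), and Per2 had 12.4 and 13.6 CPM and 20.4 and 20.2 CPM (0.66 ± 0.21, edgeR adjusted p = 0.56). Hlf, an output gene of the clock, had 389 and 383 CPM in MF and 480 and 474 CPM in HF, and Nr1d1 120 and 134 CPM and 151 and 168 CPM. In all 4 genes, named for the smallest p of the list, both HF sections lay above both MF sections. Over the 15 genes this held for 6, and in 3 both HF sections lay below, beside 17.7% and 19.1% of all genes. The time of day at which tissue was taken is not given in the sources used here.

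Myelin and oligodendrocyte genes lay below 0 in 27 of 30 cases, beside 5892 of all 11836 genes tested. Their median was -0.19 in members and -0.24 in other spots, and 9 had an unadjusted p under 0.05, all lower in HF, beside 3.49% of all genes. Their summed level was 37008 and 39789 CPM in MF and 33072 and 32809 CPM in HF. Cd9 had 94.1 and 91.03 CPM in MF and 66.2 and 74.2 CPM in HF (-0.39 ± 0.13, edgeR adjusted p = 0.56), Sox10, the lineage factor, 100.2 and 106 CPM and 87.4 and 61.1 CPM, Apod 543 and 493 CPM and 361 and 445 CPM, and Ugt8a, an enzyme of galactolipid synthesis, 322 and 356 CPM and 281 and 256 CPM. The medians of the list without 1 section were between -0.25 and -0.17. No member of the list was called.

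Lists for excitability and transmission had medians near 0, and their counts at an unadjusted p under 0.05 stand beside 3.53% higher and 3.49% lower over all genes. Of 36 channel genes, 2 were higher and 2 lower in HF at an unadjusted p under 0.05, with a median of 0.04, the 4 being Kcnj3 and Kcnab2 above and Kcnip2 and Scn4b below. Scn4b, a sodium channel subunit, had 166 and 168 CPM in MF and 145 and 119 CPM in HF (-0.33 ± 0.13, edgeR adjusted p = 0.66). Of 25 genes for glutamate transmission, 3 were higher and 2 lower, with a median of 0.01. Those above 0 were Grin2d, Grm5 and Slc17a6, the last at 0.28 ± 0.10 (edgeR adjusted p = 0.65). None of 14 GABA receptor genes and none of 15 genes for protein kinase C and phospholipase C had an unadjusted p under 0.05. Of 40 synapse assembly genes, 4 were higher (Lrrtm2, Cbln2, Lrrtm1 and Slitrk2) and 0 lower, with a median of -0.01. Cbln2, a synaptic organizer, rested on 1 section, with 18.9 and 14.8 CPM in MF and 18.2 and 54.0 CPM in HF.

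The enzymes of folate and one-carbon metabolism, the pathway that the diet supplies, held no gene past the unadjusted threshold in these spots. Of 27 tested genes 11 were above 0, beside 50.2% of all genes. The median was -0.07, and 0 had an unadjusted p under 0.05 with edgeR, beside 7.02% of all genes. The 4 smallest p belonged to Ahcyl2, a homologue of the enzyme that clears S-adenosylhomocysteine, with 181 and 167 CPM in MF and 143 and 149 CPM in HF (-0.25 ± 0.12, edgeR adjusted p = 0.71), Mthfd1, a folate enzyme, with 21.0 and 23.2 CPM and 17.0 and 14.997 CPM, Mthfd2l and the DNA methyltransferase Dnmt3a (0.18 ± 0.11). DESeq2 called none of these genes.

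Whether the diets differed in another way in the members than in all other spots was tested as a part by diet term with section as a block. It was called at an edgeR adjusted p under 0.05 for 5 of 14459 genes (0.0346%), while 835 (5.77%) had an unadjusted p under 0.05. All 5 had a more negative difference in members. Pmch (chromosome 10, 88091072 to 88092375) had 469 and 345 CPM in the members of MF and 79.8 and 0 CPM in those of HF, against 704, 510, 340 and 0.753 CPM in other spots, a difference of -1.48 ± 0.11 on the log2 scale (edgeR adjusted p = 1.97e-06). It had 2832, 1145, 211 and 0 UMIs in the members, and 0 UMIs in HF replicate 2 allow a level of up to 1.12 CPM, from 3 counts and for counting error only. Without HF replicate 1 the Pmch term was not called (edgeR adjusted p = 0.66). As HF replicate 2 held next to no Pmch anywhere, the term rested on HF replicate 1.

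Ttr, the transthyretin gene of the choroid plexus, had 742, 807, 730 and 792 CPM in members, with the diets overlapping and a log2 fold change of -0.02 ± 0.10. In other spots it had 2505 and 2367 CPM in MF and 3565 and 3905 CPM in HF. Its difference was -0.62 ± 0.06 (edgeR adjusted p = 0.000175), so the gap lay in the other spots. AW551984 (chromosome 9, 39587396 to 39604403) had a difference of -1.10 ± 0.18 (edgeR adjusted p = 0.033), with 64.8, 74.0, 59.3 and 49.8 CPM in other spots. Ppp1r1b, the striatal phosphoprotein DARPP-32 (chromosome 11, 98348404 to 98357796), had 121, 120.0, 52.2 and 107 CPM in members and 261, 215, 161 and 354 CPM in other spots, -0.68 ± 0.11 (edgeR adjusted p = 0.033). Gad2 (chromosome 2, 22622205 to 22693874) had 130.1, 128, 92.3 and 108 CPM in members and 261, 272, 271 and 345 CPM in other spots, -0.56 ± 0.09 (edgeR adjusted p = 0.033). None of the 5 is a marker of relay neurons, and all were lower in members than in other spots in each section. Without HF replicate 2, when 57 genes were called, all 5 remained among them, and without HF replicate 1, when 174 were called, all but Pmch did. Without MF replicate 1 the calls of AW551984 (edgeR adjusted p = 0.056) and Gad2 (edgeR adjusted p = 0.40) were lost, and without MF replicate 2 that of Ppp1r1b (edgeR adjusted p = 0.098). With the 100 highest spots as members these 3 genes were not called (edgeR adjusted p = 0.15 for AW551984, 0.13 for Gad2 and 0.11 for Ppp1r1b), and with the 300 highest AW551984 (edgeR adjusted p = 0.16) and Gad2 (edgeR adjusted p = 0.062) were not.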

How the data were processed

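Visium-FFPE gene expression was analysed in 4 sections, 2 from pups of MF mothers and 2 from pups of HF mothers. The authors deposited UMI counts per spot and probe target made with Space Ranger on mm10, and the submitters' processing notes also name Seurat (versions not given in the sources used here). A second deposited table per section holds a Moran's I score of spatial autocorrelation for each feature, used as given. Spots under 500 UMIs or 250 genes were left out (18 of all), and the kept spots had medians between 9039 and 23044.5 UMIs outside the member set. Gene positions are those of GENCODE on GRCm38, and promoters are those of RefSeq on GRCm38.p6.

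The members, gene lists and comparisons were chosen with earlier results of these data known. The text names the genes of the rule, the 20 leading and 10 lowest features, the 10 most abundant features, the genes called for the part by diet term, the 6 genes with the smallest p in each direction (as under 10 were called between diets) and, of each list described, at most 4 genes with the smallest p. Marker, channel and receptor genes named for their level in members, and the 2 promoters printed, were chosen after their values were seen.

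Member counts were summed per section and fitted with edgeR 4.0.16 and limma 3.58.1 in R 4.3.3, with DESeq2 1.42.0 as an alternative, and the remaining steps used Python 3.11.15 with numpy 2.4.6, pandas 2.3.3 and scipy 1.17.1. The part by diet term was fitted on sums over members and over all other spots with section as a block. Level ratios carry 0.5 CPM added to both sides, and shares over all features use those with a mean of at least 10 CPM. The tests were checked on simulated data. The alternatives were DESeq2, library size alone, no filter on low counts, a replicate block, the 100 or 300 highest spots, thinning to 5000 UMIs per spot, interior members, each section left out and, chosen after seeing the data, the largest connected group of members. Replicate numbers are shared between diets only as numbers. Doublet removal does not apply to spots, and intervals and limits from counts cover counting error only. Some genes that these rules select are not reported here.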

Additional observations from a re-analysis of the deposited data

Results flagged for a closer look

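The change between diets in relay thalamus spots differed from that in all other spots, by the test of the difference itself, for 5 genes. The difference of the log2 changes, members minus other spots, was -1.48 for Pmch, -0.62 for Ttr, -1.10 for AW551984, -0.68 for Ppp1r1b and -0.56 for Gad2. The Pmch value was not called without HF replicate 1 and the Ttr value was called under each of the 8 alternatives run for it. AW551984, Ppp1r1b and Gad2 were not called with the 100 highest spots, nor AW551984 and Gad2 with the 300 highest, and each of the 3 lost its call without 1 of the MF sections. With 2 sections per diet, single sections were not tested as outliers.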

How the results depend on the processing

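No gene was called between diets in relay thalamus spots over the 190 highest spots, nor over the 100 or the 300 highest. DESeq2 called 2 genes, library size alone 2, no filter on low counts 66, spots thinned to 5000 UMIs 1, interior members 13, and the largest connected group, an alternative chosen after seeing the data, 1. With 1 section left out the count was between 14 and 720. The deviations of MF replicate 1 and HF replicate 1 from their group means had a correlation of -0.08 over genes. With 2 sections per group the second pair mirrors the first, so this single value cannot decide whether the numbers pair the sections. With the numbers as a replicate block 25 genes were called, 9 higher and 16 lower. For the part by diet term 5 genes were called, against 68 with no filter on low counts, 8 with the 100 highest spots (2 of them shared), 3 with the 300 highest, and between 6 and 174 with 1 section left out. Its section block already holds the replicate, so no replicate block was run there. The log2 change of Ttr in members, -0.02, was 0.0014 with the 100 highest spots, 0.0078 thinned, and between -0.080 and 0.045 with 1 section left out. The share of neighbours inside the set, 66.9% ± 6.27 (SD, n = 4), was 56.6% thinned, 53.6% with the 100 highest and 76.9% with the 300 highest spots. Among named genes, 475 values kept direction and side of the threshold, 124 passed it and 4 changed sign. Causes were not tested. Depth differed between sections, and in members it differed along with diet. Median UMIs per member spot were 31948.5 and 17694.5 in MF and 13297.5 and 13797.5 in HF, MF replicate 1 being the deepest. Thinned to 5000 UMIs per spot, which also replaced some members, Rgs16, Cartpt, Syndig1l, AW551984, Calb2, Dlk1 and Epha8 had smaller log2 changes between diets. Those of Egr1, Lef1, Btaf1 and Gfap were larger.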

Other observations

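Genes that mark neighbouring regions and other cell types were also measured between diets in the relay thalamus spots. None of them was called in the edgeR fit described first, over all 4 sections. Calb2, of the midline thalamus list, was called in 6 of the 13 alternatives. Of 5 habenula genes, 3 had an unadjusted p under 0.05, all lower in HF, beside 3.49% of all genes, with a median log2 fold change of -0.57 in members and -0.04 in other spots. Leaving out the second HF section gave -0.24 in members, and leaving out the first gave -0.997. Striatum genes were below 0 in 5 of 5 cases, 3 of them at an unadjusted p under 0.05, beside 5892 of all 11836 genes below 0 and 3.49% lower at this p. They had a median of -0.55 in members and 0.08 in other spots, and their summed level was 267, 298, 182 and 209 CPM (MF sections first). Their median was -0.76 in members with the second HF section left out and -0.17 with the first left out. The 7 reticular nucleus genes had a median of -0.36 in members and 0.11 in other spots, and that of members became -0.67 when the second HF section was left out and -0.09 when the first was. The 5 midline thalamus genes had a median of 0.18, or 0.04 with the second HF section left out and 0.39 with the first left out, with Calb2 and Gbx2 highest. Gbx2, a homeobox factor, had 20.2 and 19.0 CPM in MF and 31.8 and 34.1 CPM in HF (0.75 ± 0.18, edgeR adjusted p = 0.32).

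Of 6 hippocampus genes, 2 were higher in HF at an unadjusted p under 0.05, with a median of 0.38, and of 7 cortex genes 0 passed it, with a median of 0.23. These counts and those that follow stand beside 3.53% higher and 3.49% lower in HF over all genes. Among cell types other than neurons, 9 microglia genes had a median of 0.02 with 2 higher, 9 vessel genes 0.04 with 1 lower, and 7 oligodendrocyte precursor genes -0.01 with 0 either way. The medians were -0.04 for 4 genes of the meninges, 0.21 for 4 genes of blood and -0.05 for 6 genes of choroid plexus and ependyma, with 0 at an unadjusted p under 0.05. The 18 modulatory receptors had a median of -0.04, with 1 higher and 1 lower. The sign of several medians followed the HF section kept: with the second or the first left out they were 0.48 and -0.32 for blood, 0.26 and -0.52 for the meninges, -0.42 and 0.09 for choroid plexus and ependyma, 0.17 and -0.13 for vessels, 0.12 and -0.14 for oligodendrocyte precursors and 0.01 and -0.13 for modulatory receptors. Cortex genes had 0.28 and 0.07, and hippocampus genes 0.52 and 0.26.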
